A study of Drosophila melanogaster with 6 samples.

Results

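The cytoplasmic ribosomal protein genes of the adult fly head were followed here in flies mutant for the X-linked microRNA miR-210 and in w1118 controls. Members were all genes whose symbol begins with RpL or RpS followed by a digit, which gave 84 of 13541 genes in the table, 47 of the large and 37 of the small ribosomal subunit. RpLP0, RpLP1, RpLP2, sta and Rack1 encode further proteins of the ribosome whose symbols follow another pattern, and they are described separately. Heads of adult Drosophila melanogaster were compared in 3 samples labelled miR-210 mutant, described by the line name M22-3, and 3 samples of w1118, a white-eyed laboratory strain. Sex, age, diet, the nature of the mutant allele and whether the mutant line carries the white mutation of the control are not given in the labels. The labels do not say whether the 3 samples of a genotype were taken from different flies. A p-value here is therefore set against a spread that may be purely technical. The mir-210 gene itself was not analysed here, so the genotypes rest on the labels.

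Each ribosome joins a large subunit, which forms peptide bonds, and a small subunit, which decodes the mRNA, and each subunit holds a single copy of nearly every protein. The genes for these proteins are short, highly transcribed in all cells, and carry a pyrimidine tract at the start of their mRNAs through which growth signalling adjusts translation. In flies, loss of a single copy of many of them slows development and thins the bristles, the Minute phenotype.

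The table gives the authors' mean of normalized counts for each genotype, that is, read counts divided by a size factor for each library and averaged over the 3 libraries of a genotype, and the authors' own log2 fold change, mutant over control, and p-value. Counts of single libraries were recovered from these means for 12908 genes. The libraries are called deepest, middle and shallowest within their genotype by size factor and carry no replicate number. The mutant libraries held 13129786, 11234958 and 9873554 reads in the recovered genes, and the w1118 libraries held 22329566, 13959230 and 13187651. Intervals from such counts would cover counting error only, and for abundant genes the spread between libraries is far larger.

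Ribosomal protein transcripts made up 15.4% of the summed normalized counts in mutant heads and 12.9% in w1118 heads. Large subunit genes held 9.21% in the mutant and 7.67% in w1118, and small subunit genes 6.19% in the mutant and 5.27% in w1118. Divided by gene length, the members held 24.6% of the summed level in the mutant and 21.5% in w1118. In heads, as in any bulk sample, fewer cells of a type and less RNA per cell cannot be told apart in such shares.

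Levels between genes were compared as the group mean of normalized counts per kilobase of gene length. Among the 77 members with both group means over 5000, the median level was 51295 per kilobase in the mutant and 38856 per kilobase in w1118. The lowest and highest of these levels were 12057 and 146082 per kilobase in the mutant, and 13659 and 119469 per kilobase in w1118, although the proteins are made for a particle that holds them in equal numbers. RpL27A was highest in the mutant, with 146082 per kilobase there and 107134 per kilobase in w1118. RpL41, which encodes the smallest ribosomal protein, was highest in w1118, with 143791 in the mutant and 119469 in w1118 on the same scale. RpL23 came next, with 107032 per kilobase in the mutant and 85251 in w1118, then RpS18, with 106739 in the mutant and 78901 in w1118. The order of the members hardly differed between the genotypes, with a Spearman rank correlation of 0.976 over these 77 genes. That value describes genes measured in the same 6 libraries, and genes are not independent replicates.

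At the other end, 5 genes were almost silent in both genotypes. RpS5b had 5.94 normalized counts per kilobase in the mutant and 25.1 in w1118, RpS10a 9.97 in the mutant and 8.55 in w1118, and RpS28a 10.7 in the mutant and 6.45 in w1118. RpL37b stood at 1.18 per kilobase in the mutant and 0.73 in w1118. RpS19b was listed at 0 in the mutant and at 1.43 per kilobase in w1118. Each of these 5 is the minor gene of a duplicated pair, and several are known from the germ line. The ovary markers in the table, 3 of 6 listed, summed to 4.47 normalized counts in the mutant and 2.76 in w1118, none of them at 0 in either mean.

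Which of these genes differed between mutant and control heads was then asked. In the authors' deposited table, none of the 82 members tested passed an adjusted p of 0.05, whereas 497 of all 11155 genes tested did, or 4.46%. Higher calls made up 2.56% of all genes tested and lower calls 1.89%. RpS19b and RpL37b are listed there with an adjusted p of 1 and were counted as not tested. At an unadjusted p under 0.05 the members again numbered 0, against 12% of all genes tested. The smallest unadjusted p among the members, 0.0583, belonged to RpS5b, with an adjusted p of 0.451. RpL35 followed with an unadjusted p of 0.0644 and an adjusted p of 0.475, both in the authors' deposited table.

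The direction of the fold changes was nearly uniform all the same. Of the 82 tested members, 80 had a log2 fold change above 0 and 2 below it, and under a scaling of both genotypes to equal summed means RpS21 also came out below 0. The median log2 fold change was 0.41, a 1.32-fold higher mean in the mutant, with quartiles of 0.35 and 0.46. Over all genes tested the median was -0.04, with quartiles of -0.32 and 0.20, and 45.8% of genes lay above 0. Scaling to equal summed means shifted every log2 fold change by -0.16, which left the members' median at 0.24. Relative to the median of all genes tested, the members' median was 0.45 under either scaling. Large subunit genes had a median of 0.42, with 45 of 46 above 0, and small subunit genes a median of 0.40, with 35 of 36 above 0. The plot of fold change against level shows this narrow band.

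**Figure D1:**
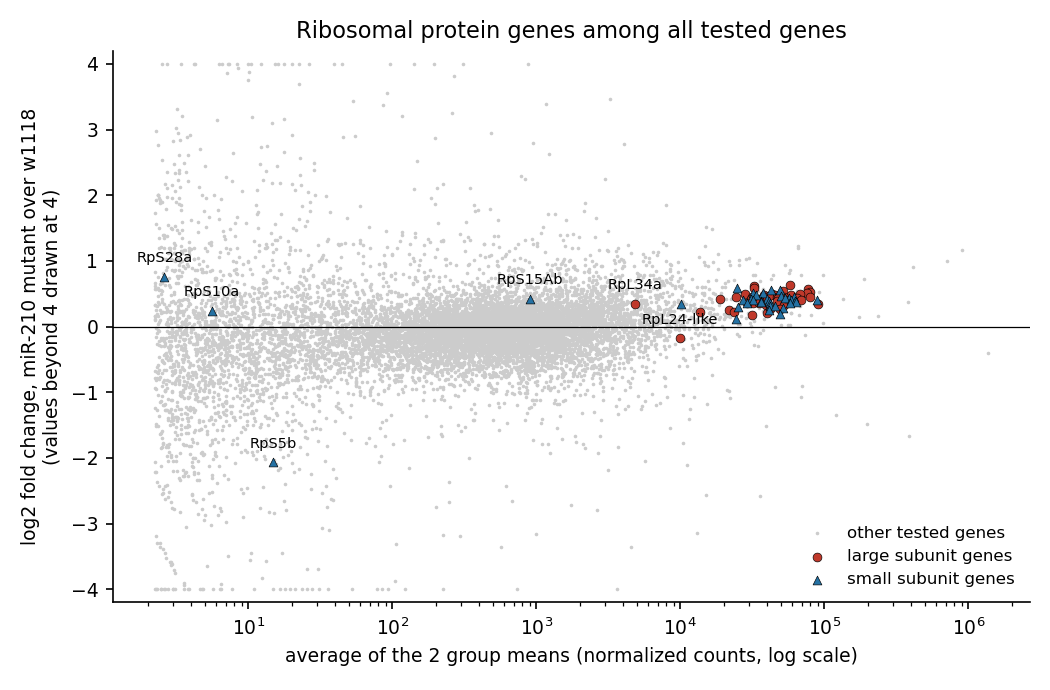
Log2 fold change, mutant over w1118, against the average of the 2 group means of normalized counts (log axis), for 46 tested large subunit genes (red circles), 36 tested small subunit genes (blue triangles) and all other tested genes (grey). The 75 ribosomal protein genes with both means over 10000 lie between 0.11 and 0.63 with a median of 0.41 in the authors' scaling. RpS5b at -2.07 and RpL24-like at -0.18 are the 2 below 0.

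Other genes of like abundance or like length had lower medians. The 75 members with both means over 10000 ranged from 0.11 to 0.63 in log2 fold change, with a median of 0.41 and a distance between quartiles of 0.11. RpL24-like missed that floor only in the mutant, with 9320 normalized counts there and 10559 in w1118. Over the 77 members with both means over 5000, the range was -0.18 to 0.63. The 217 other genes with both means over 10000 had a median of 0.20 and a distance between quartiles of 0.46, and 22 of them were called higher and 11 lower. The 351 other tested protein-coding genes as long as the members' middle range and with an average mean of at least 1000 had a median of 0.12, with 16 called higher and 3 lower. Among the 77 more abundant members, the log2 fold change had a Spearman rank correlation of 0.21 with gene length and -0.0085 with the w1118 level per kilobase. These are descriptions over genes that share libraries, and the difference between the lists was not tested.

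Among large subunit genes, RpL27 had the highest log2 fold change of the abundant members at 0.63. Its mean was 70171 normalized counts in the mutant and 45241 in w1118, with an adjusted p of 0.497 in the authors' deposited table. RpL18 had 39401 in the mutant and 25590 in w1118, a log2 fold change of 0.62. RpL35, whose protein sits near the exit of the peptide tunnel, had 39096 in the mutant and 26065 in w1118, a log2 fold change of 0.58. RpL4 (0.57), RpL6 (0.54) and RpL3 (0.53) followed in log2 fold change, and the RpL3 protein lies close to the site of peptide bond formation. None of these passed the authors' test.

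The proteins of RpL5 and RpL11 bind the 5S ribosomal RNA together, and outside the ribosome they are known in mammals to restrain the p53 regulator MDM2. RpL5 had 101247 normalized counts in the mutant and 79815 in w1118, a log2 fold change of 0.34. RpL11 had 43486 in the mutant and 34704 in w1118, a log2 fold change of 0.33. RpL40 and RpS27A encode ubiquitin fused to a ribosomal protein, and so feed both protein synthesis and protein turnover. RpL40 had 36168 in the mutant and 26555 in w1118 (0.45 in log2), and RpS27A 43771 in the mutant and 30822 in w1118 (0.51 in log2). RpL32, also known as rp49 and widely used to normalize quantitative PCR in flies, had 55091 in the mutant and 40542 in w1118. Its log2 fold change was 0.44, with an adjusted p of 0.822 in the authors' deposited table. RpL5, RpL11, RpL40, RpS27A, RpL32, RpS6 and RpS12 fall outside the rule for named genes and were picked for their known roles.

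At the low end of the large subunit stood RpL24-like, a homologue of the yeast protein Rlp24, which acts in assembly of the large subunit rather than in the finished ribosome. Its mean was 9320 normalized counts in the mutant and 10559 in w1118, a log2 fold change of -0.18. RpL36 (0.18), RpL21 (0.21), RpL39 (0.22) and RpL38 (0.22) came next in log2 fold change.

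In the small subunit, RpS20 (0.59), RpS19a (0.56) and RpS3A (0.55) had the highest log2 fold changes of the abundant genes. RpS3A is the 1 member on chromosome 4. RpS6, whose protein is phosphorylated by the growth-regulated kinase S6k, had 61400 normalized counts in the mutant and 45534 in w1118, a log2 fold change of 0.43. RpS12, known in flies for a part in cell competition between Minute and normal cells, had 47279 in the mutant and 36669 in w1118, a log2 fold change of 0.37. RpS21 had 25277 in the mutant and 23426 in w1118, a log2 fold change of 0.11. RpS3, which forms part of the mRNA entry channel, had 52074 in the mutant and 45777 in w1118 (0.19 in log2), and RpS28b had 45103 in the mutant and 37768 in w1118 (0.26 in log2).

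The highest and the lowest tested log2 fold changes both belonged to nearly silent genes. RpS28a, at 0.76, rested on 1, 6 and 1 reads in the deepest, middle and shallowest mutant libraries and on 2, 4 and 1 reads in those of w1118. RpS5b, at -2.07, rested on 6, 4 and 4 reads in the mutant and on 9, 5 and 62 reads in w1118. Without the shallowest w1118 library, the mean of RpS5b in w1118 was 4.94 normalized counts, against 5.65 ± 0.71 in the mutant (SD, n = 3). RpS10a had 3, 5 and 6 reads in the mutant and 3, 3 and 11 in w1118. RpL37b had 0, 0 and 1 in the mutant and 0, 1 and 0 in w1118, and RpS19b had 0 in all 3 mutant libraries and 0, 2 and 1 in w1118. No difference was detectable in these 5 genes at this depth.

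Single libraries showed how wide the spread behind the group means was. Values in all 6 libraries were recovered for 28 members, of which 23 had an average mean of at least 100. In the other 56 members, at least 1 group mean was too large for its libraries to be told apart. Of the 28, 9 had a single combination of counts in both genotypes. The rest were recovered, in at least 1 genotype, by assuming that the highest library was at most 2.5 times the lowest. RpL18 had 26865, 39643 and 51696 normalized counts in the deepest, middle and shallowest mutant libraries, and 17051, 29945 and 29773 in those of w1118. RpL35 had 27430, 38808 and 51050 in the mutant and 20031, 29757 and 28407 in w1118. In both genes the deepest mutant library lay below 2 of the w1118 libraries, and the genotypes overlapped. RpS20 had 17435, 30207 and 41352 in the mutant and 12829, 23848 and 22493 in w1118. RpS21 had 16124, 25732 and 33976 in the mutant and 13802, 27842 and 28633 in w1118, so that 2 w1118 libraries lay within the mutant range. RpL24-like had 5276, 10881 and 11803 in the mutant and 5415, 14049 and 12212 in w1118, and the ranges overlapped.

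The genotypes overlapped in all 23 of these genes. Over all 11002 tested genes with recovered libraries, 9.47% had every mutant library above every w1118 library and 9.15% had every mutant library below. RpL18 averaged 39401 ± 12417 in the mutant and 25590 ± 7395 in w1118 (SD, n = 3 each). The coefficient of variation of the 23 genes lay between 25.9% and 40.3% in the mutant and between 20.2% and 43.1% in w1118. Where a recovery assumed the limit of 2.5, the spread is capped by it.

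The spread followed a shared order. In the mutant, the deepest library had the lowest value and the shallowest the highest in all 49 abundant members whose mutant libraries were recovered. Their median ratio of shallowest to deepest was 1.99, with a range of 1.71 to 2.37. The ratio could not exceed 2.5 where the recovery assumed that limit. In w1118 the deepest library was lowest in all 23 genes, with a median ratio of shallowest to deepest of 1.76. The median gene stood at 18780, 30207 and 41007 normalized counts in the deepest, middle and shallowest mutant libraries, and at 14234, 27526 and 27107 in those of w1118. The plot by library shows the members moving as a block.

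**Figure D2:**
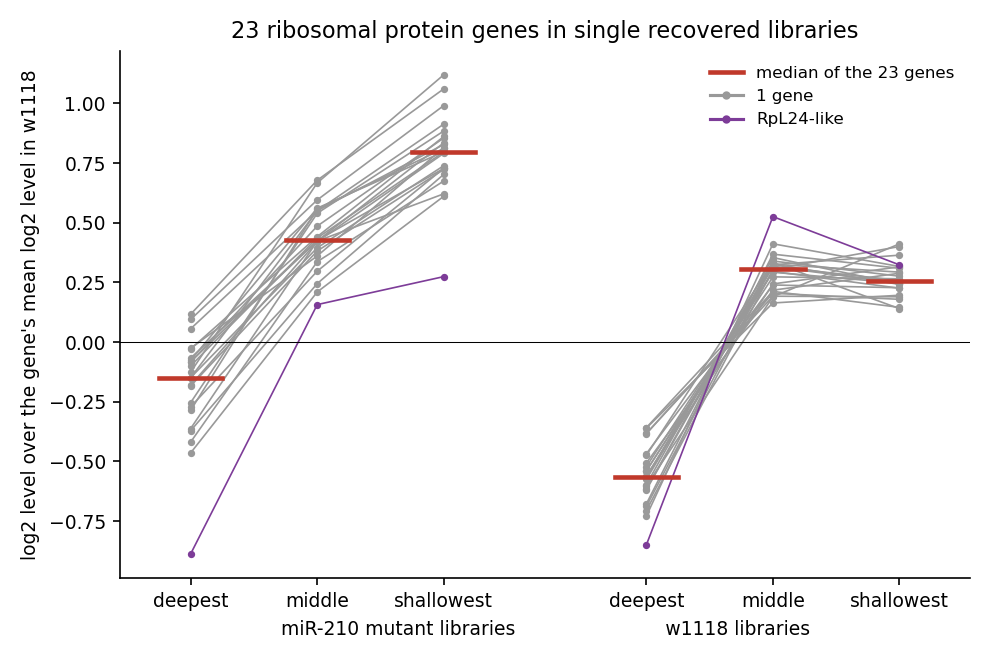
Log2 level of the 23 recovered ribosomal protein genes in each library, over the gene's mean log2 level in w1118, with the deepest, middle and shallowest library of the mutant on the left and of w1118 on the right; each line is 1 gene, the purple line is RpL24-like and red bars are medians. The deepest library of each genotype is lowest (median gene 18780 normalized counts in the mutant, 14234 in w1118), and the mutant's shallowest is highest at 41007.

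The size of the difference therefore turned on which libraries entered. Over the 23 genes, the median log2 ratio of group means was 0.36 with all libraries and 22 of 23 above 0. It was 0.41 between the deepest libraries alone and 0.35 without the deepest library of each genotype, with 22 of 23 above 0 in both cases. Without the shallowest mutant library it was 0.14, with 18 of 23 above 0, and without the deepest w1118 library 0.16, with 19 of 23 above 0. Without the deepest mutant library it was 0.57, and without the middle or the shallowest w1118 library 0.51 and 0.49. The median of all 7891 genes compared in the same way stayed within 0.04 of 0 in each case. With 3 libraries against 3, an exact two-sided permutation test cannot go below p = 0.1.

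Gene length moved with the same contrast between libraries. Genes under 500 bases stood at a median log2 ratio of -0.60 in the mutant's deepest library over its other libraries, and at -0.53 in w1118. Genes of 4000 bases or more stood at 0.83 in the mutant and 0.86 in w1118. The 23 members stood at -0.77 in the mutant and -0.85 in w1118, below every length class of other genes. The members' median length was 901 bases, against 1722 bases over all genes, and 3 members were longer than that. Between genotypes, the length trend over all tested genes came to 0.04 at the members' median length, and the members' median log2 fold change with the trend removed was 0.37. What sets the deepest libraries apart was not tested.

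**Figure D3:**
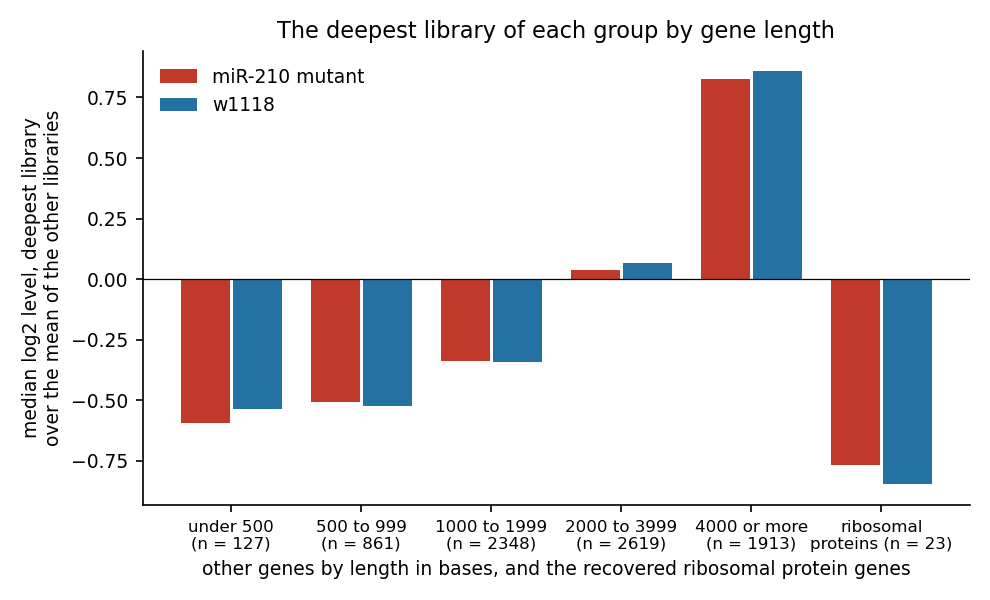
Median log2 level in the deepest library over the mean of the other libraries of the same genotype, for the mutant (red) and w1118 (blue), for other genes in 5 classes of length and for 23 recovered ribosomal protein genes. In genes of 4000 bases or more the bars stand at 0.83 in the mutant and 0.86 in w1118, and in the ribosomal protein genes at -0.77 in the mutant and -0.85 in w1118.

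The fit across all genes was sensitive to how this contrast was treated. With limma on the recovered libraries of 11702 genes, 0 of 26 recovered members passed an adjusted p of 0.05, none reached an unadjusted p of 0.05, and 128 genes or 1.09% were called in all. With the deepest library of each genotype as a term, a setting chosen after the data were seen, 12 of the 26 members were called higher, with a background of 17.6% called and 8.09% called higher. The 12 were RpL12, RpL18, RpL22, RpL30, RpL35, RpL35A, RpL37A, RpL40, RpS15Aa, RpS15Ab, RpS20 and RpS24. The term takes out a spread already seen in these same members, and the labels give no factor shared by the deepest libraries. The 12 calls therefore cannot decide whether the members differ between the genotypes. RpL18 had a log2 fold change of 0.62 ± 0.12 (SE) and a limma adjusted p of 0.00438 in that fit, against 0.62 ± 0.33 and 0.561 without the term. RpS21 had 0.12 ± 0.12 (SE) and RpL24-like -0.15 ± 0.11, both short of the threshold, with limma adjusted p of 0.547 and 0.369. With the deepest library of each genotype left out, 0 of the 26 passed and 10 had an unadjusted p under 0.05, with 8.49% of all genes called. Leaving out any single library also gave 0 members called. Without the deepest mutant library, 5 of the 26 had an unadjusted limma p under 0.05, as had 1978 of all 11702 genes. Each of the other single omissions gave 0 members at that unadjusted threshold. In these omissions the share of all genes called was 0.573, 0.197 and 0.273% without the deepest, middle or shallowest mutant library, and 0.692, 0.214 and 0.197% without those of w1118. A pseudocount of 0.5, with 1.04% of all genes called, or libraries scaled to equal totals, with 1.07%, gave 0 members as well.

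Whether the members differed among themselves was asked by setting each against the mean log2 level of the 23 genes in the same library. That removes their average movement only. RpL22 still stood at 0.70, 0.57 and 0.50 in the deepest, middle and shallowest mutant libraries, and RpS20 at 0.24, 0.40 and 0.51. Because the 23 genes make up the mean, some must come out higher when others come out lower. In 7 of the 23 genes the genotypes then did not overlap. Of 3953 other genes set against the same mean, 12.6% did not overlap, but those genes are not part of that mean as the 23 are, so the shares are not comparable and nothing is read from them. RpL18 was higher by 0.27 in log2, at 0.83 ± 0.03 above that mean in the mutant and 0.56 ± 0.02 in w1118 (SD, n = 3 each). RpS20 was higher by 0.21, at 0.38 ± 0.14 in the mutant and 0.18 ± 0.03 in w1118 (SD, n = 3 each). RpL35A was higher by 0.09 and RpL37A by 0.07 in the mutant. RpS21 was lower, with a difference of -0.23, at 0.17 ± 0.05 in the mutant and 0.40 ± 0.12 in w1118 (SD, n = 3 each). RpL39 had a difference of -0.16 and RpL29 of -0.10. RpL24-like had the largest difference, -0.50, but its libraries overlapped. RpL34a differed by less than 0.01 in absolute size. RpL39 and RpL12 overlap each other in exons on opposite strands, but only from base 24061853 to base 24061860 of 2R. As strandedness is not given, reads within that stretch may not be separable. RpL18, RpS20, RpL37A, RpL29 and RpL24-like also overlap another gene in exons on the opposite strand, while RpL35A and RpS21 do not. How many of their reads fall in such overlaps was not examined.

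**Figure D4:**
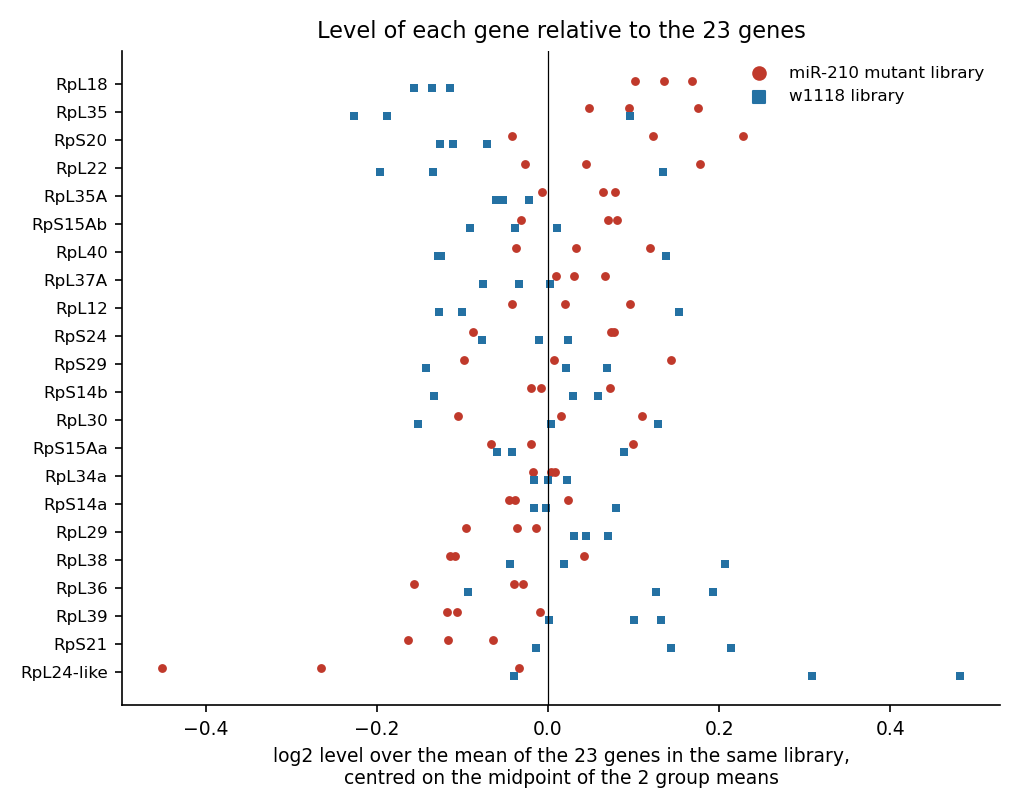
Log2 level of 22 of the 23 recovered ribosomal protein genes over the mean of the 23 genes in the same library, centred for each gene on the midpoint of the 2 group means, with 3 mutant libraries (red circles) and 3 w1118 libraries (blue squares). RpL18 at the top differs by 0.27 and RpS21 by -0.23 with no overlap, and RpL24-like at the bottom by -0.50 with overlap.

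Genes that share a protein name formed 9 pairs, 18 genes in all, of which 8 pairs are duplicated genes of a ribosomal protein and the other joins RpL24 and RpL24-like. In 5 pairs the minor gene was the near silent one named above, and RpS5a, RpS10b, RpS19a, RpS28b and RpL37a supplied nearly all counts. RpL34b gave 87.9% of the RpL34 pair in the mutant and 87.8% in w1118. RpS15Ab gave 3.08% of its pair in the mutant and 2.95% in w1118. RpS14a (X, bases 7933742 to 7934677, plus strand, build dm6) and RpS14b (X, bases 7934898 to 7935792, plus strand) are neighbouring, nearly identical genes, so the split of reads between them is uncertain. RpS14b held 29.3, 28.9 and 29.2% of that pair in the deepest, middle and shallowest mutant libraries, and 27.0, 28.3 and 29.1% in those of w1118. The use of these 3 pairs thus differed by less than 1 percentage point between the genotype means. RpL24-like, which is related to RpL24 by name and not a second copy of it, held 14.7% of the counts of both in the mutant and 19.0% in w1118. The 16 tested genes of the 9 pairs had a median log2 fold change of 0.35, and the 66 others 0.42.

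The members lie on all major chromosomes, with 22 on 3R, 18 on 2R, 16 on 2L, 14 on X and 13 on 3L. Median log2 fold changes by chromosome ran from 0.38 on 2L to 0.44 on 3L, leaving aside RpS3A on 4. RpL18 lies on 3L (bases 7240203 to 7241351, minus strand), RpL35 on X (bases 5672401 to 5673547, plus strand) and RpS21 on 2L (bases 2856070 to 2857029, plus strand). RpL24-like lies on 3R (bases 11430740 to 11431582, minus strand). In the Ensembl BDGP6 annotation the members had a median of 3 exons and a median 5′ UTR of 84 bases, against 4 exons and 133 bases for protein-coding genes. Small nucleolar RNAs, which guide the modification of ribosomal RNA, lie in introns of 27 members, 70 in all and 14 of them in RpS5a. The hosts had a median log2 fold change of 0.42 and the other 55 tested members 0.40. Exons of 29 members overlap another gene, and their median was 0.41, against 0.40 in the 53 others. RpS12 had no match in that annotation and was counted among the others in both splits. RpL23 overlaps in exons, on the opposite strand, with inaD, which encodes a scaffold protein of phototransduction.

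The rest of the translation machinery was examined by lists of genes given with their roles. The other ribosomal proteins, RpLP0, RpLP1 and RpLP2 of the stalk, sta and Rack1 of the small subunit, and RpLP0-like, had log2 fold changes of 0.47, 0.46, 0.54, 0.52, 0.57 and 0.17. None of these 6 was called, and their median was 0.50. The 23 tested ribosome biogenesis genes had a median log2 fold change of 0.22, with 21 above 0 and none called. The 27 initiation factors had a median of 0.20, with 21 above 0 and none called. In that list eIF3b, a core subunit of the factor that loads the small subunit onto mRNA, had 12387, 14316 and 15661 normalized counts in the deepest, middle and shallowest mutant libraries, and 8482, 10834 and 10328 in those of w1118. The genotypes did not overlap in eIF3b, yet its adjusted p was 0.157 in the authors' deposited table. In eIF3a, eIF3c and eIF5B every mutant library also lay above every w1118 library. In eIF5 every mutant library lay below, with means of 3.16 normalized counts in the mutant and 16.3 in w1118. Its unadjusted p in that table, 0.00817, was the smallest of the list. Over all tested genes with recovered libraries, 9.47% lay wholly above and 9.15% wholly below.

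Elongation and release factors held the single call in these lists. The mRNA of eEF1alpha2, 1 of the 2 genes for the factor that delivers aminoacyl-tRNA, fell in the mutant. It had 11115, 12740 and 13500 normalized counts in the deepest, middle and shallowest mutant libraries, and 19233, 22930 and 20347 in those of w1118. No library of the genotypes overlapped, the log2 fold change was -0.74, and the adjusted p was 0.00141 in the authors' deposited table. Its more abundant counterpart eEF1alpha1 averaged 233195 in the mutant and 141472 in w1118, a log2 fold change of 0.72 with an adjusted p of 0.134. The gene eEF1gamma had 0.72 on the same scale, with an adjusted p of 0.202. In eEF5 and eEF1delta every mutant library lay above every w1118 library, as in 9.47% of all tested genes with recovered libraries. Their adjusted p was 0.410 and 0.592 in the authors' deposited table, and neither was called. The median of the 9 genes was 0.42, with 8 above 0. The 72 mitochondrial ribosomal proteins had a median of 0.03 and none called, and the 15 regulators a median of -0.14 and none called. Among the regulators were Myc, a transcription factor that drives ribosome production (-0.66), Thor, the translation repressor 4E-BP (0.03), and Xrp1, a factor induced in flies with ribosomal protein mutations (-0.01).

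**Figure D5:**
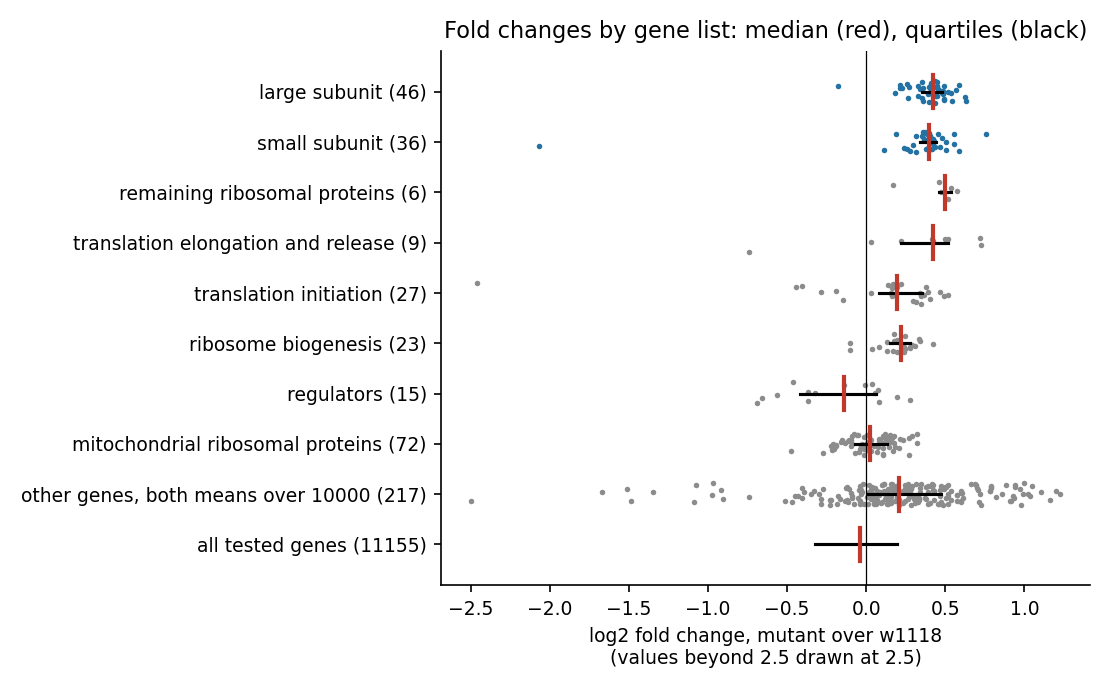
Log2 fold change, mutant over w1118, of the tested genes of each list, with large and small subunit genes in blue, other lists in grey, the median as a red line and the quartiles as a black bar; points of all tested genes are not drawn. Medians stand at 0.42 and 0.40 for the 2 subunits, 0.50 for the remaining ribosomal proteins, 0.22 for biogenesis, 0.03 for mitochondrial ribosomal proteins and -0.04 for all tested genes.

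Some markers of head cell types were called between the genotypes, but none of the neuron, muscle, ovary or testis markers was. All 4 photoreceptor markers had log2 fold changes below 0 and 3 of them were called lower, with summed means of 265388 normalized counts in the mutant and 755108 in w1118. All 4 neuron markers were below 0 and none was called, with 18081, 8732 and 6749 summed normalized counts in the deepest, middle and shallowest mutant libraries and 31935, 13042 and 12979 in those of w1118. The 4 fat body markers summed to 611847 in the mutant and 327204 in w1118, nearly all of it from Yp1 and apolpp, and neither of these was called. Lsp2 was called higher, while Fbp1, not called, had 2.98 in the mutant and 9.17 in w1118. Of 2 glia markers alrm was called lower, and of 3 muscle markers none was called. Of 2 hemocyte markers NimC1 was called lower, while Hml, not called, had 7564 in the mutant and 4737 in w1118, and the sum of both was 7638 in the mutant and 6121 in w1118. The 4 testis markers in the table, of 7 listed, summed to 628 in the mutant and 960 in w1118, nearly all of it from bol, and aly was at 0 in w1118. The part of these markers in the ribosomal protein levels was not tested.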

How the data were processed

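RNA of adult fly heads was sequenced on an Illumina platform in 3 miR-210 mutant and 3 w1118 samples, per the labels. The submitters' processing notes name FastQC, HISAT2, featureCounts and DESeq with build dm6; the sources used here give no roles, versions or strandedness. The authors' deposited table of 1 comparison holds, for each genotype, a mean signal (size-factor normalized counts averaged over libraries), a log2 fold change and a p-value with its Benjamini-Hochberg adjustment over 11155 genes. A count test per sample had been planned; the table holds means, so the authors' deposited calls at an adjusted p under 0.05 are the main result.

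Each mean is a sum of 3 whole counts times 3 library steps. Libraries were recovered where a single combination gave the mean to 15 digits. Above a mean of 10000 either it was the only combination found or the only one with the highest library at most 2.5 times the lowest. Means over 100000 were not searched. limma 3.58.1 in R 4.3.3 (trend, robust) was fitted to log2(normalized count + 1) of 11702 recovered genes with a mean of at least 1, where fold changes of low genes are understated; other values came from Python 3.11.15. Scripts were tested on simulated data. Of simulated means with a single combination, 73 of 74 in the mutant and 45 of 45 in w1118 gave the true counts. The simulated libraries varied independently, without the shared order seen here, so these shares may not hold for the data.

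Genes named by rule were the 10 highest and 10 lowest tested fold changes, the 5 highest and 5 lowest levels per kilobase, and every gene of a pair by name or not tested; 1 gene of the rule is not reported here by name. The biogenesis list as drawn up also held Rrp1 and pes, which in flies are a DNA repair enzyme and a scavenger receptor, and these were left out. Members, lists and the rule were chosen with earlier results of these data known. Of 84 gene IDs, 83 matched the Ensembl annotation, 82 of them with the same coordinates.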

Additional observations from a re-analysis of the deposited data

How the results depend on the processing

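The count of 0 ribosomal protein genes called higher and 0 called lower held at adjusted p thresholds of 0.1 and 0.01, at an unadjusted p under 0.05, over every gene with a p-value, over genes with an average mean of at least 10, and in limma with a pseudocount of 1 or 0.5 or with libraries scaled to equal totals. With the deepest library of each genotype as a term, added after the data were seen, limma called 12 higher and 0 lower. That library was identified from the data, so these calls cannot decide whether the members differ. Leaving out each library in turn gave 0 calls in limma. The median log2 fold change of 0.41 lay between 0.24 and 0.45 under the other fold changes, scalings, filters, the removal of the length trend and the omission of genes paired by name. Over the 23 genes in single libraries the median ran from 0.14 to 0.57 when a library was left out, and was 0.25 with libraries scaled to equal totals. RpS21 changed sign with equal summed means. Of the 23 genes, RpL29, RpL36, RpL39 and RpS21 changed sign without the shallowest mutant library. RpL36, RpL38 and RpS21 did so without the deepest w1118 library, and RpL24-like without the deepest mutant or the middle w1118 library. Among the nearly silent genes, RpS5b changed sign without the shallowest w1118 library (5.65 normalized counts in the mutant, 4.94 in w1118). RpS28a did so without the middle mutant library, and RpL37b without the shallowest mutant library. RpS10a did so without the shallowest mutant, the deepest w1118 or the middle w1118 library. The cause was not tested. No paired analysis was possible because the table's columns carry no replicate numbers. The edgeR test, planned for a table of counts per sample, was not run on the recovered reads, and neither was DESeq2. In 56 members the libraries of at least 1 genotype could not be told apart, so the spread of that genotype is not known here.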
